A study of Homo sapiens with 12 samples.

Results

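Keratins of liver and bile duct were followed in Huh7 and HepG2, a pair of human liver cancer cell lines, after the cells had become resistant to sorafenib, a kinase inhibitor used against hepatocellular carcinoma. The genes were taken by name: KRT7, KRT8, KRT10, KRT18, KRT19, KRT23, KRT80 and KRT81, each found as 1 row of the deposited tables, 8 of the 98711 genes listed (27249 of these under Ensembl identifiers). RNA was sequenced from 3 samples in each of 4 groups, Huh7 resistant, Huh7 parental, HepG2 resistant and HepG2 parental. All samples are labelled wild type. Per the labels, resistant cells had received sorafenib from a first dose of 10 μmol in rising concentrations over 8 months and had been grown on from the surviving cells, while parental cells had no treatment. The labels do not say whether a resistant line is 1 clone or a mixed population, nor whether the 3 samples of a group were separate cultures, so p-values measure the spread between these samples, which may be technical. Levels are given as FPKM, fragments scaled to the exon length of the gene and to the depth of the sample, which allow genes to be compared per length.

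Keratins build the intermediate filaments of epithelial cells. A filament is made of pairs of 1 type I and 1 type II keratin, so that both types are needed in the same cell. Hepatocytes use KRT8 with KRT18 only, whereas bile duct cells add KRT7 and KRT19, and KRT19 is therefore used as a marker of biliary or progenitor character in liver tumours. KRT10 is known from the upper layers of the epidermis, KRT23 is a further type I keratin, KRT80 is found in many epithelia, and KRT81 is a keratin of hair.

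The type II genes lie together on chromosome 12 of GRCh38 and most of the type I genes on chromosome 17. KRT80 lies at chr12:52168996-52192000, KRT7 at chr12:52232520-52252186, KRT81 at chr12:52285913-52291534 and KRT8 at chr12:52897187-52949954. KRT18 is the type I gene of the chromosome 12 group, at chr12:52948871-52952901 on the opposite strand to KRT8, and the annotated exons of both share 525 bases. KRT10 (chr17:40818117-40822595), KRT23 (chr17:40922696-40937634) and KRT19 (chr17:41523617-41528308) form the chromosome 17 group. No strand setting of the counting is given in the sources used here, so reads in the shared bases of KRT8 and KRT18 cannot be told apart. The same holds for 314 exon bases that KRT7 shares with KRT7-AS and KRT87P, 186 that KRT23 shares with AC004231.1 and 56 that KRT10 shares with TMEM99.

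The members can be set side by side at the end of the rod, the coiled part of the protein that holds the partners together and the most conserved stretch of the family. The coding sequence of 60 bases around this end is shown for the type I members KRT18, KRT19, KRT10 and KRT23, 5′ to 3′ on the coding strand, with the codons of the helix termination motif in capitals. Each window lies within 1 coding exon of the GENCODE 29 transcript on GRCh38.
KRT18, chr12:52952275-52952334, plus strand: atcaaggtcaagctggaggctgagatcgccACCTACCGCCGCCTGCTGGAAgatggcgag
KRT19, chr17:41523782-41523841, minus strand: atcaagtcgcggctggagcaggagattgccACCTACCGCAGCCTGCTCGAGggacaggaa
KRT10, chr17:40819519-40819578, minus strand: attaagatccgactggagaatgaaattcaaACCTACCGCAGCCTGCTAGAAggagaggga
KRT23, chr17:40925359-40925418, minus strand: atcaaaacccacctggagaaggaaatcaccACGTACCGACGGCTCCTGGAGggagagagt
KRT18 and KRT19 shared 42 of the 60 bases in this window and 67.7% of their aligned coding bases. With the other type I members, KRT18 shared 40 bases of the window (KRT10) and 38 (KRT23). With type II members it shared 42 (KRT81), 41 (KRT7) and 40 (KRT8), so the window did not set the types apart for KRT18. KRT8 and KRT18, the partners of the hepatocyte filament, shared 67.9% of their aligned coding bases, and KRT7 and KRT8, both of type II, 77.4%.

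Both lines carried the RNA of hepatocytes. All 10 hepatocyte markers of the list (among them ALB, albumin, and HNF4A, a hepatocyte transcription factor) had a mean of at least 1 FPKM in every group, and their summed level lay between 3177 and 5898 FPKM in every sample. VIM, the intermediate filament protein of mesenchymal cells, was at most 0.605 FPKM in any sample and was listed at 0 in every HepG2 sample. All 8 epidermal markers together reached at most 1.48 FPKM in Huh7 and 0.131 FPKM in HepG2, and KRT5 and KRT14 were at or near 0 throughout. The 15 markers of fibroblasts, leukocytes and endothelium summed to between 6.81 and 16.5 FPKM, and 3 of them in each Huh7 group and 4 in each HepG2 group had a mean of at least 1 FPKM. The highest were PDGFRB, a receptor of mesenchymal cells (means of 2.07 to 3.58 FPKM), PECAM1 of endothelium (1.34 to 3.13 FPKM) and, in HepG2, LYZ, the lysozyme of myeloid cells (4.93 and 5.32 FPKM). Their part in the results was not tested. These are bulk samples, in which fewer cells of a type and less RNA per cell cannot be told apart. The samples held 12290092 to 19285885 reads, most in Huh7 resistant (18972333 to 19285885) and fewest in HepG2 parental (12290092 to 15728672).

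Of the keratins, 5 made up nearly all of the RNA: KRT8, KRT18, KRT19, KRT10 and KRT23 each reached a group mean of at least 1 FPKM, and they alone passed the filter on low values (1 FPKM or more in no fewer than 3 of the samples of a comparison). KRT7, KRT80 and KRT81 stayed below it in every comparison. Of the 46 other keratin genes listed, 0 had a group mean of at least 1 FPKM, and the highest value in any sample was 0.605 FPKM, for KRT222.

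**Figure D1:**
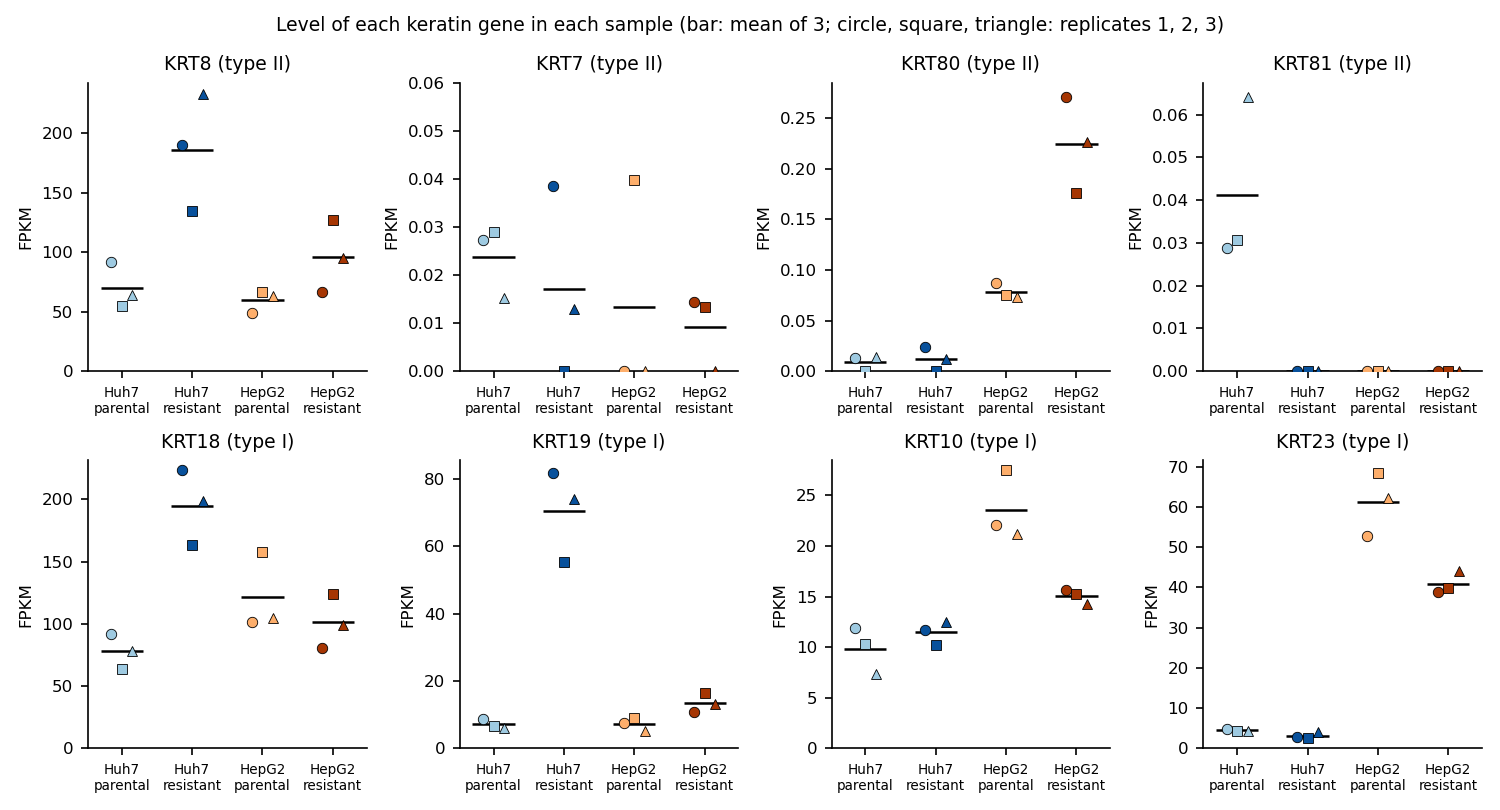
Level of each of the 8 keratin genes in each sample (vertical axis, FPKM from 0, with its own scale for each gene) by group; points are the 3 samples, bars the mean. KRT8, KRT18 and KRT19 are highest in Huh7 resistant, KRT10 and KRT23 in HepG2 parental, and the levels of KRT7, KRT80 and KRT81 stay below 0.3 FPKM.

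In Huh7, KRT19, KRT8 and KRT18 rose, by 8.70-fold, 2.63-fold and 2.48-fold on the scale of FPKM + 1, which is 3 of the 5 keratins tested called higher in resistant cells (adjusted p under 0.05 and a log2 difference beyond 1) and 0 lower. Over all 12554 genes tested, 8.59% were called higher and 14.0% lower in this comparison. An adjusted p under 0.05 at any size was found for 4 of the 5 keratins and for 70.1% of genes. The groups did not overlap for 4 of them, 3 higher and 1 lower (KRT23), where 35.2% of genes were higher and 39.2% lower without overlap. The median log2 difference was 1.31 over the 5 keratins and −0.04 over all genes.

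In HepG2, 0 of the 5 were called by limma, and limma-voom on reads also called 0, while 4 had an unadjusted p under 0.05 and 3 (KRT19, KRT10 and KRT23) an adjusted p under 0.05. The number with an adjusted p under 0.05 depended on the samples kept and on the setting. Without HepG2 resistant replicate 2 or 3 it was 0, and without any 1 of the HepG2 parental replicates it was 1. Without HepG2 resistant replicate 1 it was 3. Over all genes the number also fell, from 2357 to 1466 without HepG2 resistant replicate 2 and to 840 without replicate 3. With all samples kept, it was 4 keratins with limma-voom, the replicate block or the GC trend removed, and 2 with median-ratio scaling (settings given below). Without a filter on low values, 7 of the keratins were tested in HepG2 and 2 had an adjusted p under 0.05, KRT10 among them (limma). With the filter, 6.27% of 11762 genes were called in either direction in HepG2 and 20.0% had an adjusted p under 0.05. KRT8 and KRT19 were higher and KRT10 and KRT23 lower without overlap of the groups, beside 24.9% and 15.5% of genes. The median log2 difference was −0.25 over the 5 keratins and 0.12 over all genes.

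The change in Huh7 differed from that in HepG2 (interaction, adjusted p under 0.05) for 3 of the 5 keratins, a share like that of all genes (56.3%). The KRT19 difference was larger in Huh7 by 2.29 ± 0.310 on the log2 scale (limma interaction, adjusted p = 0.000136), and that of KRT18 by 1.56 ± 0.304 (limma interaction, adjusted p = 0.00126). These were the 2 of 5 members called in the interaction, where 10.6% of 13800 genes were called higher and 18.2% lower and 56.3% had an adjusted p under 0.05. The difference of KRT10 was 0.82 ± 0.222 (limma interaction, adjusted p = 0.00829). That of KRT8 was 0.75 ± 0.385 (limma interaction, adjusted p = 0.12, 95% interval −0.10 to 1.59), so a larger KRT8 change in Huh7 was not shown.

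KRT8, the only type II keratin of normal hepatocytes, was higher in resistant than in parental Huh7. It stood at 190, 135 and 233 FPKM in the 3 resistant Huh7 samples and at 92.2, 54.3 and 63.7 FPKM in the 3 parental ones. The groups did not overlap, and the lowest resistant sample lay above the highest parental one. The log2 difference was 1.40 ± 0.241 (SE, n = 3 and 3), a 2.63-fold higher level on the scale of FPKM + 1 (limma, adjusted p = 0.000999). In HepG2, KRT8 was at 66.5, 127 and 95.4 FPKM in resistant and 48.5, 66.4 and 63.4 FPKM in parental samples. Here the lowest resistant sample and the highest parental one almost met, and the log2 difference of 0.65 ± 0.241 did not pass the test (limma, adjusted p = 0.0899). From high to low the group means of KRT8 were 186 FPKM in Huh7 resistant, 96.3 in HepG2 resistant, 70.1 in Huh7 parental and 59.4 in HepG2 parental. The first of these stood apart, while the ranges of each of the lower 3 overlapped with the next.

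KRT18, the type I partner of KRT8, was higher in resistant Huh7 too, but not in resistant HepG2. It stood at 224, 163 and 199 FPKM in resistant and at 92.1, 64.0 and 78.5 FPKM in parental Huh7. The groups were fully separate, with a log2 difference of 1.31 ± 0.169, a 2.48-fold higher level (limma, adjusted p = 0.00023). In HepG2, KRT18 was at 80.7, 124 and 99.0 FPKM in resistant and 102, 158 and 104 FPKM in parental samples. These groups overlapped, and the log2 difference of −0.25 ± 0.224 did not pass the test (limma, adjusted p = 0.449, 95% interval −0.76 to 0.26). The group means were 195 FPKM in Huh7 resistant, 121 in HepG2 parental, 101 in HepG2 resistant and 78.2 in Huh7 parental. Only the Huh7 resistant samples lay above all others, and each of the lower groups overlapped with the next.

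KRT19, a type I keratin of bile ducts, showed the largest difference among the keratins in Huh7. It stood at 81.7, 55.3 and 74.1 FPKM in resistant Huh7 and at 8.76, 6.71 and 6.07 FPKM in parental Huh7. Every resistant sample lay far above every parental one. The log2 difference was 3.12 ± 0.175, an 8.70-fold higher level on the scale of FPKM + 1 (limma, adjusted p = 7.81e-06). In HepG2, KRT19 was at 10.8, 16.4 and 13.1 FPKM in resistant and 7.60, 8.95 and 5.01 FPKM in parental samples. The HepG2 groups did not overlap either, and the log2 difference of 0.83 ± 0.223 had an adjusted p of 0.0336 (limma) but was below the size of 1 required for a call. The group means were 70.4 FPKM in Huh7 resistant, 13.4 in HepG2 resistant and about the same in both parental lines, 7.18 in Huh7 and 7.19 in HepG2. The parental ranges overlapped and the log2 difference between the parental lines was 0.02 ± 0.215 (95% interval −0.48 to 0.51).

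KRT10, an epidermal type I keratin, was lower in resistant than in parental HepG2 and did not differ in Huh7 beyond the spread. In HepG2 it stood at 15.6, 15.3 and 14.3 FPKM in resistant and 22.1, 27.5 and 21.2 FPKM in parental samples. The groups were separate, and the log2 difference of −0.61 ± 0.144 passed the p-value (limma, adjusted p = 0.0223) but not the size of a call. In Huh7 it was at 11.7, 10.2 and 12.5 FPKM in resistant and 11.9, 10.3 and 7.36 FPKM in parental samples. These overlapped, with a log2 difference of 0.22 ± 0.167 (limma, adjusted p = 0.268, 95% interval −0.16 to 0.60).

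KRT23, a type I keratin, was the member that differed most between the lines, in parental and in resistant cells. It stood at 38.8, 39.9 and 44.1 FPKM in resistant and at 52.9, 68.4 and 62.4 FPKM in parental HepG2. In Huh7 the level was 2.76, 2.59 and 4.02 FPKM in resistant and 4.74, 4.21 and 4.35 FPKM in parental samples. In each line the resistant samples lay below the parental ones without overlap. The log2 difference was −0.56 ± 0.146 in HepG2 (limma, adjusted p = 0.0299) and −0.41 ± 0.145 in Huh7 (limma, adjusted p = 0.0313), both below the size of a call. In Huh7 the adjusted p was between 0.0520 and 0.104 without any 1 sample other than resistant replicate 3 (limma). The difference between these changes was 0.15 on the log2 scale (limma interaction, adjusted p = 0.534, 95% interval −0.28 to 0.58).

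The other members were near the limit of detection. KRT7, the type II keratin of bile ducts, had 0 to 3 reads per sample, which is at most 0.0398 FPKM, in all 12 samples. KRT81 had 1, 1 and 2 reads in the parental Huh7 samples and 0 in every other sample. Up to 3 reads in a sample is the limit that a count of 0 allows, counting error alone considered, so neither gene could be compared at this depth. KRT80 had at most 2 reads in any Huh7 sample. In HepG2 it had 20, 14 and 17 reads in resistant and 5, 4 and 5 reads in parental samples, or 0.271, 0.176 and 0.227 FPKM against 0.0875, 0.0748 and 0.0731 FPKM. The KRT80 groups did not overlap and the ratio of the mean FPKM was 2.87, with a two-sided exact permutation p of 0.1, the smallest that 3 samples against 3 allow.

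The gene differences in Huh7 ran with base composition. Over the genes tested, the log2 difference of resistant against parental cells and the GC content of the longest transcript had a Spearman correlation of 0.617 in Huh7 and 0.0389 in HepG2, across genes, which are not independent replicates. All 5 keratins tested are richer in GC than the median gene tested in Huh7 (46.7%), with 61.8% in KRT19, 56.2% in KRT8, 55.7% in KRT18, 52.0% in KRT10 and 50.3% in KRT23. With the GC trend of each library removed, KRT19 kept a log2 difference of 2.60 and its call in Huh7 (limma, adjusted p = 5.57e-06). KRT8 then had 0.89 (limma, adjusted p = 0.0066) and KRT18 had 0.81 (limma, adjusted p = 0.00127), both below the size of a call, although the groups still did not overlap. KRT10 then lay at −0.14 in Huh7, on the other side of 0. The interactions of KRT19 (2.01) and KRT18 (1.21) kept their calls with the trend removed.

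**Figure D2:**
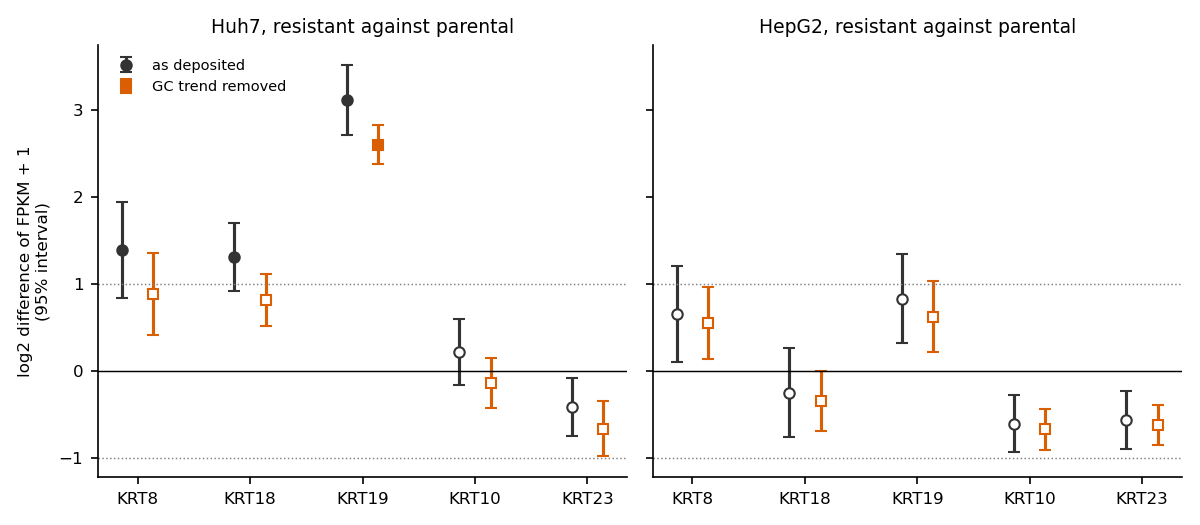
Log2 difference of FPKM + 1 between resistant and parental cells (vertical axis) for the 5 keratins tested, in Huh7 (left) and HepG2 (right), from values as deposited (circles) and with the GC trend of each library removed (squares); bars are 95% intervals from 3 against 3 samples, filled symbols are calls, and dotted lines mark the size of 1. In Huh7, KRT19 stays above 2 in both, while KRT8 and KRT18 fall below 1 when the trend is removed.

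The lines were also compared with each other, in comparisons that use the same samples as those above. In parental cells, KRT23 was 3.51 lower on the log2 scale in Huh7 than in HepG2 (SE 0.138, limma, adjusted p = 4.39e-07) and KRT10 was 1.19 lower (SE 0.189, limma, adjusted p = 0.000708). These were 2 of 5 members called lower in Huh7 and 0 were called higher, beside 12.5% and 19.4% of 12796 genes. KRT18 was at −0.61 (limma, adjusted p = 0.0339), and KRT8 at 0.21 (limma, adjusted p = 0.417). In resistant cells, KRT19 was 2.31 higher in Huh7 on the log2 scale (SE 0.189, limma, adjusted p = 3e-05) and KRT23 differed by −3.36 (SE 0.146, limma, adjusted p = 1.2e-06). In this comparison 14.4% of 12550 genes were called higher and 14.4% lower. KRT8 (0.96, limma, adjusted p = 0.0159) and KRT18 (0.95, limma, adjusted p = 0.00263) were just below the size of a call, and both passed it without Huh7 resistant replicate 2 (1.17 and 1.07) or without HepG2 resistant replicate 2 (1.18 and 1.11). KRT10 was at −0.37 (limma, adjusted p = 0.0157).

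The make-up of the keratin RNA followed from these levels and is given as a description. The summed FPKM of the 8 genes was 466 ± 86.7 (SD, n = 3) in Huh7 resistant, 170 ± 36.0 in Huh7 parental, 267 ± 54.9 in HepG2 resistant and 273 ± 50.3 in HepG2 parental. KRT19 made up 15.1% ± 0.920 of the sum in Huh7 resistant and 4.26% ± 0.511 in Huh7 parental. In HepG2 its share was 5.03% ± 0.0836 in resistant and 2.64% ± 0.658 in parental cells. KRT23 held 22.6% ± 1.78 of the sum in HepG2 parental, 15.7% ± 3.03 in HepG2 resistant and 2.67% ± 0.381 in Huh7 parental. In Huh7 resistant it held 0.673% ± 0.118. KRT18 and KRT8 together remained the main part in every sample.

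The balance of the types differed in 1 group. The ratio of KRT8 to KRT18, by FPKM, was 0.827 to 1.17 in Huh7 resistant, 0.811 to 1.00 in Huh7 parental and 0.824 to 1.02 in HepG2 resistant, but 0.420 to 0.607 in HepG2 parental, which did not overlap with the others. The summed type II members came to 0.253 to 0.329 of the type I members in HepG2 parental, 0.458 to 0.651 in HepG2 resistant, 0.583 to 0.806 in Huh7 resistant and 0.638 to 0.785 in Huh7 parental. The lowest share of KRT8 in the type II FPKM of a sample was 99.6%, so nearly all type II keratin RNA was that of KRT8. These ratios rest on the exon length used for each gene, which is 6881 bases for KRT8 with a start far from the coding exons and 3218 bases for KRT18. Without division by length, KRT8 had 2.03, 1.90, 2.00 and 1.07 reads for each KRT18 read in Huh7 resistant, Huh7 parental, HepG2 resistant and HepG2 parental.

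**Figure D3:**
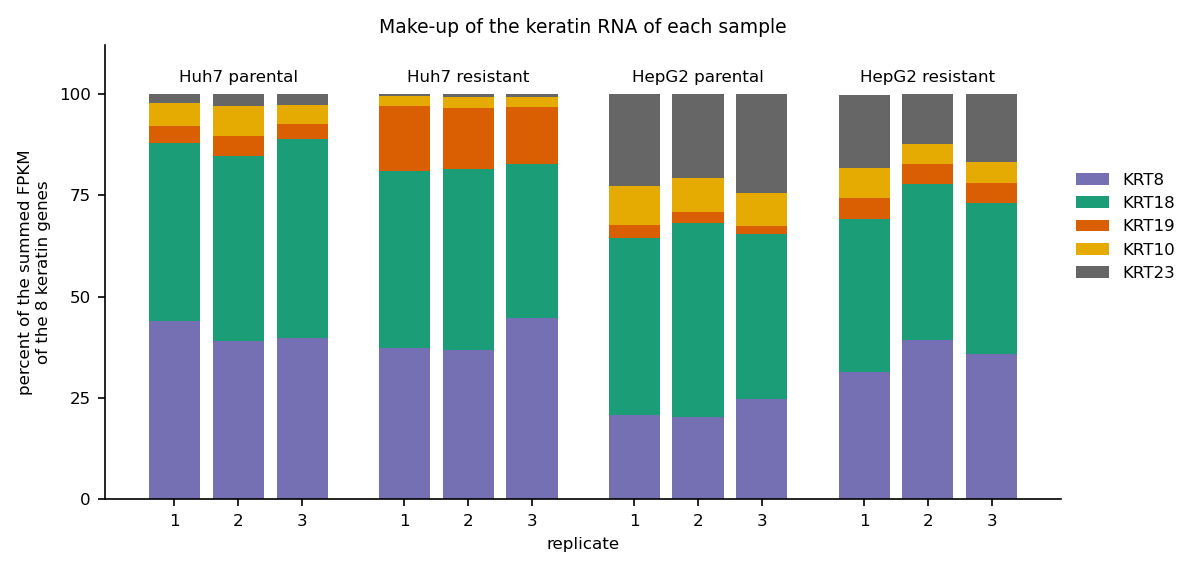
Share of KRT8, KRT18, KRT19, KRT10 and KRT23 in the summed FPKM of the 8 keratin genes (vertical axis, percent) in each of the 12 samples, by group; KRT7, KRT80 and KRT81 are too low to be seen. The KRT19 part is widest in Huh7 resistant (mean 15.1%), the KRT23 part in HepG2 parental (mean 22.6%), where the KRT8 part is smallest (mean 21.9%).

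KRT8 and KRT18 have many processed copies in the genome, and 104 keratin pseudogenes were listed, 35 of KRT8 and 52 of KRT18. Of all keratin pseudogenes, 9 reached a group mean of at least 1 FPKM. The reads of the KRT18 copies together came to 5.62 to 10.6% of those of KRT18 in Huh7 parental, 1.23 to 1.91% in Huh7 resistant, 1.41 to 3.26% in HepG2 parental and 2.07 to 4.82% in HepG2 resistant. For KRT8 the share was 1.67 to 2.94%, 0.676 to 1.01%, 1.53 to 2.17% and 0.921 to 1.47% in the same order. The share was lower in every resistant Huh7 sample than in every parental one for both genes. The reads of the KRT18 copies were also fewer in resistant (150 to 193) than in parental Huh7 (299 to 434), whereas those of the KRT8 copies overlapped (178 to 206 and 185 to 206) while the KRT8 reads differed. Reads moved between a gene and its copies by the authors' counting could not be followed, and their part in the results was not tested.

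The KRT18 window shown above is repeated here from 3 of the copies with at least 1 FPKM in a group, with the bases that differ from KRT18 in capitals. In these copies the whole window fell within 1 stretch aligned without a gap.
KRT18P15, chr3:32260042-32260101, plus strand, 4 differences: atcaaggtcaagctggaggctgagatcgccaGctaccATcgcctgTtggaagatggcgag
KRT18P31, chr5:36886309-36886368, plus strand, 5 differences: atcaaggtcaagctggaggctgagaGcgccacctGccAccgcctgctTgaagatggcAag
KRT18P57, chr1:111648415-111648474, minus strand, 5 differences: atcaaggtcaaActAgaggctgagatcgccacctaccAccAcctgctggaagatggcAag
Over their aligned length these copies were 92.7%, 90.6% and 90.4% identical to KRT18, and 3.30%, 0.885% and 0% of their stretches of 50 bases were found unchanged in it. KRT18P15 was at 1.10 to 2.01 FPKM in resistant and 2.94 to 6.47 FPKM in parental Huh7, with a log2 difference of −1.03 ± 0.238 (limma, adjusted p = 0.00464). KRT18P63, another copy, was at 0.754 to 1.06 FPKM in resistant and 3.53 to 6.89 FPKM in parental Huh7 (log2 −1.60 ± 0.196, limma, adjusted p = 0.000183). These were the 2 called, both lower, of the 8 copies of KRT8 and KRT18 tested in Huh7, where 14.0% of all genes were called lower. Both are copies of KRT18, and their direction was opposite to that of KRT18 itself. The KRT8 copies tested in Huh7 were not called, with log2 differences of 0.36 (KRT8P12), −0.18 (KRT8P39) and −0.62 (KRT8P29). In HepG2, 0 of 5 copies were called by limma and 0 had an adjusted p under 0.05. Without Huh7 parental replicate 3 or Huh7 resistant replicate 3, the difference of KRT18P15 was −0.79 or −0.86 and below the size of a call.

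KRT17P8, a pseudogene named for KRT17 (chr12:9127783-9128645), is given here after its values were seen, because it was the highest of the keratin pseudogenes. It stood at 36.1, 36.0 and 43.1 FPKM in resistant and 11.8, 10.8 and 11.8 FPKM in parental Huh7, and at most 0.147 FPKM in HepG2. The Huh7 groups were far apart, with a log2 difference of 1.66 ± 0.110 (limma, adjusted p = 1.58e-05), and 1.12 with the GC trend removed. Its sequence was compared with the members only, not with KRT17 or other keratins. Of the members KRT19 was closest, 84.0% identical over 755 aligned bases, and 0% of its stretches of 50 bases occurred in KRT19.

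**Figure D4:**
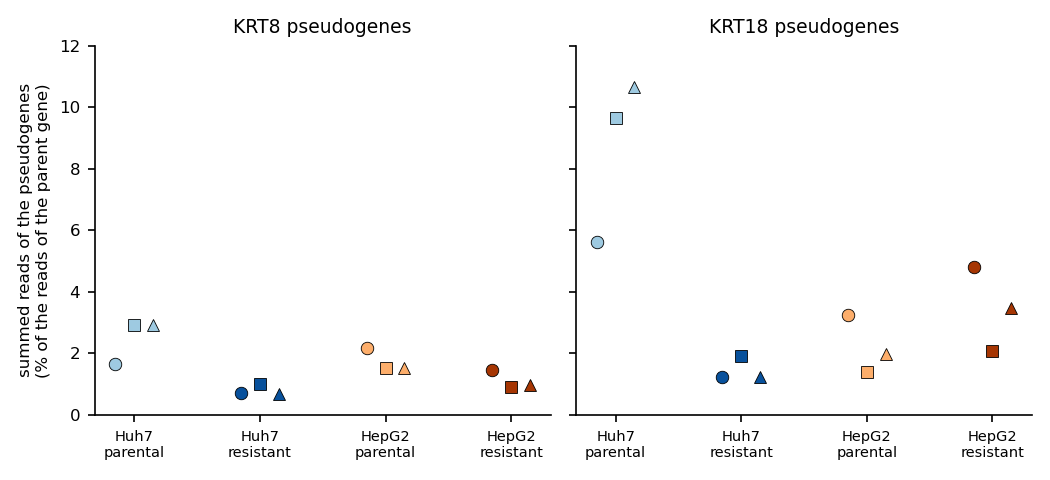
Summed reads of the KRT8 pseudogenes (left) and KRT18 pseudogenes (right) as a percent of the reads of the parent gene (vertical axis) in each sample, by group. The 3 Huh7 parental samples lie at 5.62 to 10.6% for KRT18, above all other samples, which lie at or below 4.82%.

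Keratin filaments are anchored at desmosomes and hemidesmosomes and are shaped by binding proteins and kinases. Of 20 desmosome and plakin genes, 13 were tested in Huh7, 3 were called higher and 3 lower, with a median log2 difference of −0.29. Over all genes in Huh7 the median was −0.04, and 8.59% were called higher and 14.0% lower. JUP, plakoglobin of the desmosomal plaque, was higher in resistant Huh7, at 14.1 to 20.9 FPKM in parental and 47.5 to 63.1 FPKM in resistant samples (log2 1.61 ± 0.164, limma, adjusted p = 8.49e-05). PKP3, a plakophilin of the same plaque, rose by 2.37 on the log2 scale, and DST, the plakin dystonin, fell by 2.11. In HepG2, 0 of the 14 tested were called by limma, 4 had an adjusted p under 0.05, and the median was −0.16. Over all genes in HepG2 the median was 0.12, 6.27% were called and 20.0% had an adjusted p under 0.05. Of 7 hemidesmosome genes, 2 of the 3 tested were called higher in Huh7: CD151, a tetraspanin that binds laminin receptors, at 1.57 ± 0.134, and LAMB3, a laminin chain, at 1.46 ± 0.111. In HepG2, 0 of the 4 tested were called by limma and 2 had an adjusted p under 0.05.

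Among 18 genes of keratin binding and modification, 17 were tested in each line. In Huh7, 4 were called higher and 0 lower, with a median of 0.59 (all genes −0.04, 8.59% called higher and 14.0% lower). The list shares PLEC and EPPK1, named here for this reason, with the desmosome and plakin genes. PLEC was called higher in Huh7 (log2 1.05) and is counted in both lists. With the GC trend removed it was at 0.63 and not called. FAM83H, which binds keratins together with casein kinase, was higher in resistant Huh7, at 2.40 to 2.81 FPKM in parental and 13.2 to 15.4 FPKM in resistant samples (log2 2.11 ± 0.110, limma, adjusted p = 6.16e-06). PRKCD, a protein kinase C, rose by 2.05 and YWHAE, a 14-3-3 protein, by 1.07 on the log2 scale. In HepG2 only HSPB1, a small heat shock protein, was called, at 25.4 to 46.6 FPKM in resistant and 12.2 to 14.7 FPKM in parental cells (log2 1.46 ± 0.234, limma, adjusted p = 0.00496). Of the other intermediate filament genes, 1 of 5 was called in Huh7, LMNA, which encodes the lamins A and C of the nucleus, at 1.58 ± 0.149. In HepG2, 0 of 5 were called (limma) and 1 had an adjusted p under 0.05. Over all genes in HepG2, 6.27% were called and 20.0% had an adjusted p under 0.05.

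KRT19 is read together with other markers of bile duct and progenitor cells. In Huh7, 9 of the 12 markers were tested, 2 were called higher and 2 lower, and the median was −0.41 (all genes −0.04, 8.59% called higher and 14.0% lower). CLDN4, a claudin of tight junctions, stood at 0.50 to 1.02 FPKM in parental and 8.18 to 10.9 FPKM in resistant Huh7 (log2 2.64 ± 0.152, limma, adjusted p = 8.98e-06). EPCAM, the epithelial cell adhesion molecule, was at 5.84 to 6.37 FPKM in parental and 23.5 to 27.2 FPKM in resistant Huh7, a log2 difference of 1.89 ± 0.101. PROM1, the surface protein CD133, fell by 1.65 on the log2 scale. In HepG2, 8 were tested, 1 was called higher and 3 lower, with a median of −0.47 (all genes 0.12, 6.27% called). SPP1, osteopontin, rose by 1.83 there, and JAG1, a Notch ligand, fell by 1.33 in HepG2 and by 1.27 in Huh7. CLDN4, higher in resistant Huh7, was called lower in resistant HepG2, at 5.68 to 8.26 FPKM against 11.98 to 19.57 FPKM in parental samples (log2 −1.06, limma, adjusted p = 0.0106), and the changes in the lines differed by 3.70 (limma interaction, adjusted p = 2.41e-06). The list as a whole thus did not move in 1 direction with KRT19 in either line.

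Of the 10 hepatocyte markers, 1 was called in each line. Over all genes, 8.59% were called higher and 14.0% lower in Huh7, and 6.27% in either direction in HepG2. AHSG, a secreted plasma protein, was higher in resistant Huh7 (log2 1.11 ± 0.142, limma, adjusted p = 0.000219). FGB, the fibrinogen beta chain, was lower in resistant HepG2 (−1.98 ± 0.202, limma, adjusted p = 0.000827). The summed hepatocyte markers were 3177 to 3383 FPKM in resistant and 3372 to 3514 FPKM in parental Huh7, ranges that overlap, and 4655 to 5110 FPKM in resistant and 5070 to 5898 FPKM in parental HepG2. Of the markers of other cell types, 0 of 3 were called in Huh7 and 0 of 4 in HepG2 by limma. In each line 2 of them had an adjusted p under 0.05, beside 70.1% of all genes in Huh7 and 20.0% in HepG2. None of the 8 epidermal markers and none of the other type I or type II keratins reached the filter.

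Of 13 transcription factors and regulators of epithelia, 5 of the 6 tested in Huh7 were called higher and 0 lower, with a median log2 difference of 1.35 (all genes −0.04, 8.59% called higher and 14.0% lower). In HepG2, 2 of the 4 tested, KLF5 and ELF3, were called lower and 0 higher, with a median of −0.62 (all genes 0.12, 6.27% called). KLF5, a Krüppel-like factor, was at 22.6 to 23.4 FPKM in parental and 85.3 to 98.3 FPKM in resistant Huh7, and at 22.1 to 30.2 FPKM in parental and 3.60 to 4.43 FPKM in resistant HepG2. The log2 differences were 1.94 ± 0.10 and −2.38 ± 0.159, and their difference was 4.32 ± 0.170 (limma interaction, adjusted p = 5.91e-08). ELF3, an ETS factor, was at 1.37 in Huh7 and −1.10 in HepG2 on the log2 scale (limma, adjusted p = 7.78e-05 and 0.0346), with an interaction of 2.48 ± 0.363 (adjusted p = 0.000223). ESRP2, a splicing regulator kept in this list, rose by 1.90 in Huh7. With the GC trend removed, 3 of the 6 regulators stayed called in Huh7: the calls of ELF3 (0.87) and of CDX2 (1.07 before, 0.55 after; named here after its values were seen) were lost. Those of LAMB3 and AHSG in Huh7 were lost too (0.92 and 0.68), as was that of AHSG without Huh7 parental replicate 3 (0.99) and that of YWHAE without Huh7 parental replicate 2 (0.87). In HepG2 the call of ELF3 was lost without any 1 of 5 of the 6 samples, with log2 differences of −0.84 to −1.20, and without a filter on low values (limma, adjusted p = 0.118).

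**Figure D5:**
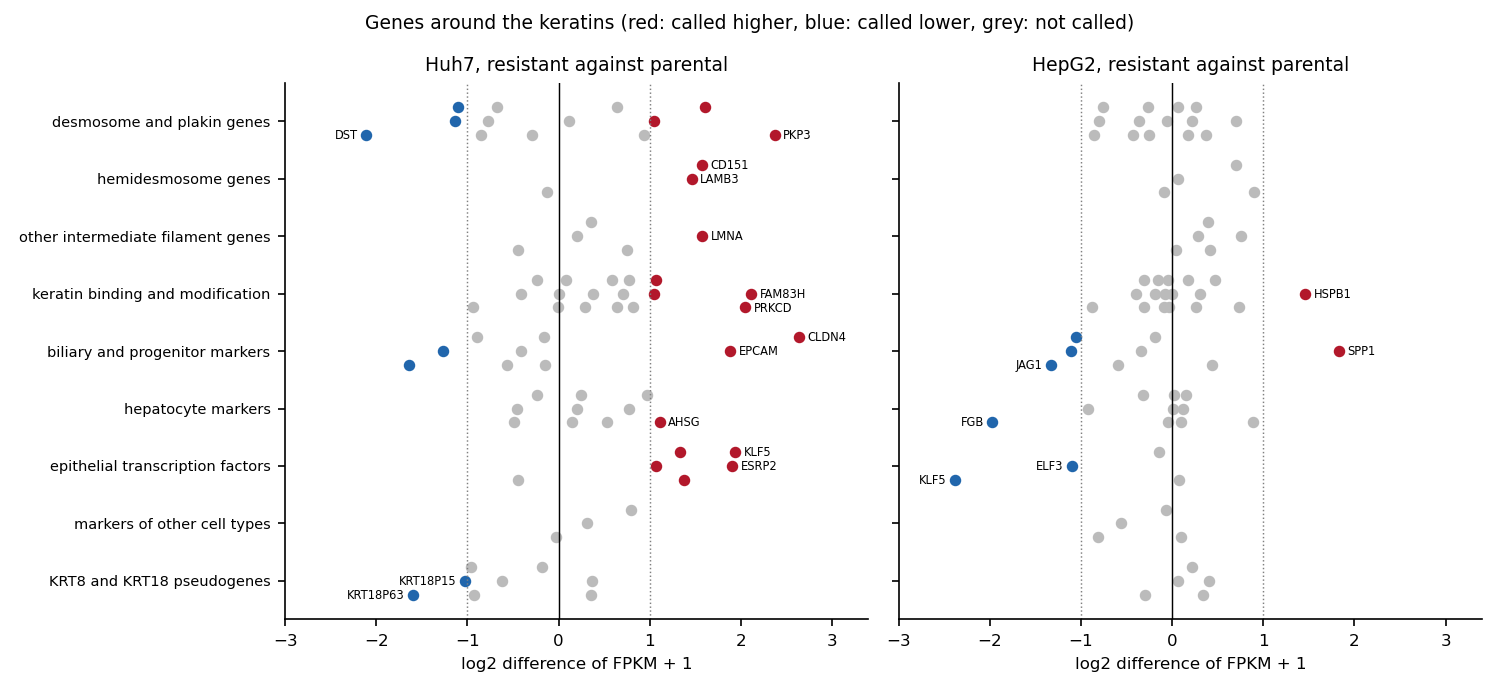
Log2 difference of FPKM + 1 between resistant and parental cells (horizontal axis) for each tested gene of 9 lists, in Huh7 (left) and HepG2 (right); each point is 1 gene, red is called higher, blue called lower, grey not called, dotted lines mark a size of 1, and up to 2 called genes with the largest difference in each list and line are labelled. In Huh7, 5 of 6 epithelial transcription factors are red, and in HepG2, 2 of 4 are blue.

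The members did not follow one pattern over the 12 samples. On log2(FPKM + 1), the Pearson correlation was 0.921 between KRT8 and KRT19, 0.833 between KRT18 and KRT19, 0.791 between KRT8 and KRT18 and 0.850 between KRT10 and KRT23. Between KRT19 and KRT23 it was −0.532, and between KRT8 and KRT10 −0.312. These are descriptions over samples that fall into 4 groups of 3 and share their libraries. Among 13799 other genes, those most like KRT19 were PKM, TEAD2 and ACD (r = 0.990, 0.990 and 0.987). The genes most like KRT18 were TUBA1C, FKBP4 and DHX8 (0.990, 0.990 and 0.981), and those most like KRT8 were SSSCA1, ZNF335 and PELP1 (0.984, 0.983 and 0.983). For KRT10 they were ATF4, MRPL20 and MRPS21 (0.979, 0.977 and 0.977), and for KRT23 RASGRF2, GMDS and HOXD1 (0.994, 0.993 and 0.993). RASGRF2, for example, had mean levels of 0.138 and 0.336 FPKM in Huh7 resistant and parental and 12.5 and 19.5 FPKM in HepG2 resistant and parental.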

How the data were processed

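RNA-seq of 12 samples was analysed. The authors had divided the reads of each gene by its length and by the depth of the sample before they deposited 1 table of FPKM per sample, as the values show: in 6896 single-exon genes, multiplying a value by exon length gives a whole number of steps, 1 step size per sample. The unit is not named, and RPKM cannot be told apart from FPKM by this. No aligner or counting tool is given in the sources used here; the submitters' processing notes name bcl2fastq and GRCh38. With lengths from GENCODE 29, 96.4% of values up to 2000 reads lie within 0.05 of a whole read, and reads per sample (12290092 to 19285885) were calculated back in this way. As there were no molecular identifiers, limits from reads cover counting error only. Groups came from the sample titles.

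Python 3.11.15 (pandas 2.3.3, numpy 2.4.6, scipy 1.17.1) was used to join the tables. A gene was tested in a comparison if 3 or more of its samples had 1 FPKM or more. The test was that of limma 3.58.1 in R 4.3.3 (trend), two-sided, on log2(FPKM + 1), adjusted by Benjamini-Hochberg over all genes tested. A call needs an adjusted p under 0.05 and a log2 difference beyond 1. Fold changes on this scale understate the change of low genes. Tested on simulated data with 200 genes changed by 2 on the log2 scale, the fit recovered 100% of them in Huh7 (12171 genes), 99.5% in HepG2 (11544 genes) and 90.0% in the interaction (12951 genes). The changed genes were drawn from those well above the filter, with the same dispersion for all genes and no GC trend. Recovery of smaller differences or of lower genes was therefore not shown. Exact permutation tests were used for single genes below the filter. To remove the GC trend, a lowess curve (span 0.3) of the deviation of each library against gene GC content was subtracted. Other alternatives were a pseudocount of 0.1, no filter, scaling by upper quartile or median ratio, limma without the trend, limma-voom on reads, the replicate number as a block, all 12 samples in one fit and leaving out each sample. The replicate numbers were not treated as pairs in the main test.

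The members and lists were chosen with earlier results of these data known. Genes named are the 8 members, other keratins with a group mean of at least 1 FPKM, up to 3 called genes with the largest difference from each list and line, and the 3 genes most like each expressed member. Sequences came from GENCODE 29 transcripts, as longest coding sequences. NONCODE genes were not used here. Protein sequences were not used here. Some named genes and sequence windows are not reported here.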

Additional observations from a re-analysis of the deposited data

Results flagged for a closer look

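The resistant-parental difference in Huh7 was set against that in HepG2 by the interaction in limma over all 12 samples, and 56.3% of all genes tested had an adjusted p under 0.05. The difference in Huh7 minus that in HepG2 was 2.29 on the log2 scale for KRT19 (adjusted p = 0.000136), 1.56 for KRT18 (adjusted p = 0.00126) and 0.82 for KRT10 (adjusted p = 0.00829). KRT19 was higher in all 3 resistant samples than in all 3 parental samples of both lines, and the lines differed in size.

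Of the other genes named, those that follow were called in the interaction (adjusted p under 0.05 and beyond 1 on the log2 scale). For KLF5 the difference was 4.32 (adjusted p = 5.91e-08), for CLDN4 3.70 (adjusted p = 2.41e-06) and for ELF3 2.48 (adjusted p = 0.000223). KLF5 and CLDN4 were higher in every resistant Huh7 sample and lower in every resistant HepG2 sample than in the parental samples. Among the anchoring genes it was 2.63 for PKP3, 1.88 for JUP, 1.505 for CD151, 1.47 for LAMB3 and −1.68 for DST. Among the genes of keratin binding and the filaments it was 2.36 for PRKCD, 2.12 for FAM83H, 1.16 for YWHAE and 1.18 for LMNA. Among the cell type markers it was 2.07 for EPCAM, −1.55 for PROM1, −1.98 for SPP1, 2.12 for FGB and 1.16 for AHSG, and for the splicing regulator ESRP2 it was 1.83. Among the pseudogenes it was 1.62 for KRT17P8, −1.99 for KRT18P63 and −1.09 for KRT18P15. These differences were not weighed further. No group was large enough to be searched for samples that stand apart.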

How the results depend on the processing

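Over the alternatives, 3 keratins were called in Huh7, 0 in HepG2, 2 in the interaction and 2 in each comparison of the lines, with these exceptions. With the GC trend removed, and with the replicate block together with removal of the GC trend, 1 was called in Huh7 (KRT19). Leaving out 1 sample gave 2 to 4 calls between the resistant lines. Median-ratio scaling added KRT10 in the interaction (1.00). KRT10 in Huh7 turned to −0.14 with the GC trend removed, with and without the block. KRT23 in the interaction turned to −0.0094 with the GC trend removed, with and without the block, and to −0.042 with limma-voom. Between the parental lines, KRT19 turned to −0.060 with upper-quartile and −0.14 with median-ratio scaling and ranged from −0.19 to 0.17 when 1 sample was left out, while KRT8 ranged from −0.0016 to 0.37. The causes of these turns were not tested. Without division by length, the KRT8 to KRT18 ratio was 2.03, 1.90, 2.00 and 1.07, and KRT19 made up 7.85%, 2.16%, 2.70% and 1.62% of the 8 members' reads, in Huh7 resistant, Huh7 parental, HepG2 resistant and HepG2 parental. The replicate block alone left 3, 0 and 2 keratins called in Huh7, HepG2 and the interaction and 2 in each comparison of the lines. The correlation of same-numbered samples was −0.228 to 0.0843 in Huh7 and −0.011 to 0.438 in HepG2. For samples with different numbers it was −0.335 to 0.282 in Huh7 and −0.423 to 0.210 in HepG2. With the block, the genes with an adjusted p under 0.05 went from 8797 to 8609 in Huh7 and from 2357 to 3418 in HepG2. Whether the same-numbered HepG2 samples were paired was not settled by these values. Of the lists other than the pseudogenes, 22 genes were called in Huh7 and 8 in HepG2, and 17 and 9 with the GC trend removed, which left 1 hemidesmosome gene, 3 epithelial transcription factors and 0 hepatocyte markers called in Huh7 but called 5 KRT8 and KRT18 pseudogenes lower, against 2 before, and gave 2 hepatocyte markers in HepG2. Without a filter, 1 epithelial transcription factor was called in HepG2. A pseudocount of 0.1 gave 4 of these pseudogenes in Huh7 and 2 hemidesmosome genes, 1 other intermediate filament gene and 1 marker of other cell types in HepG2, and 1 such marker in Huh7. Over all genes, removing the GC trend left 703 called higher and 787 lower in Huh7, of 1079 and 1759, and changed the calls higher and lower from 387 and 350 to 279 and 444 in HepG2, from 1459 and 2517 to 1487 and 1398 in the interaction and from 2482 and 1599 to 1777 and 1831 between the parental lines, where the median moved from 0.19 to −0.0011. Median-ratio scaling gave 285 and 428 calls in HepG2 and 1861 and 2025 in the interaction, and limma-voom 1427 and 2849 in Huh7 and 685 and 492 in HepG2. Depth limits KRT7 and KRT81, which have at most 3 reads in a sample.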
